A study of Mus musculus with 6 samples.

Results

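Kinesins, cytoplasmic dyneins, dynactin subunits and tubulins were examined in lumbar dorsal root ganglia of wild-type mice and of mice labelled as NMDA receptor knockouts. The genes were taken by name, as the protein-coding genes whose GRCm38 symbol starts with Kif and a digit, with Tuba, Tubb or Tubg and a digit, with Dync1 or Dync2, or with Dctn and a digit. This gave 69 of 36793 gene identifiers, namely 39 Kif genes, 17 tubulins, 7 dynein genes and 6 dynactin genes. One of the Kif genes, Kif1bp, encodes a protein that binds kinesins and is no motor, and it was kept because its symbol meets the rule. The symbols Kif16bos, Kif22-ps, Kif4-ps and Tubb4b-ps1 also match but belong to 1 antisense RNA and 3 pseudogenes, which were left out.

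Bulk RNA sequencing was done on ganglia from lumbar levels L3 and L4 of 6 mice, numbered 1 to 3 in the wild type and 4 to 6 in the knockout. By the series title, the deleted gene is Grin1, which codes for the GluN1 subunit that every NMDA receptor needs, and the deletion is in Schwann cells, the glia that wrap peripheral axons. The sources used here do not give the driver of the deletion, the strain, or the age and sex of the mice, and no agent or treatment is named for either group. The labels call the cell type Schwann cells but name the ganglion as the source, and the 11 neuronal markers examined summed to between 10283 and 11959 TPM (transcripts per 1000000, a level corrected for transcript length) in wild type, against 4976 to 5843 TPM for 9 markers of myelinating Schwann cells. The libraries are therefore described as whole ganglion.

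The libraries held 28526704 to 36249163 expected counts. By chi-square at a false discovery rate of 0.05, 0 of 10258 genes differed between knockout libraries 5 and 6. Each of the other 14 pairs had 3382 to 7317 differing genes. Averaged over the genes, chi-square was 1.151 for libraries 5 and 6 and 13.2 to 104 for the other pairs. Libraries 5 and 6 were thus close to sampling noise, though a small difference beyond it is not excluded. Knockout libraries 5 and 6 were therefore counted as 1 sample, which leaves n = 3 wild-type and n = 2 knockout samples. Groups are called overlapping or not over these 5 samples. Wild-type library 2 and knockout libraries 5 and 6 stood apart from the other libraries of their groups in the same genes, as described below. Grin1 was at 69.2, 111.7 and 74.1 CPM (normalised counts per 1000000) in wild-type mice and at 81.7, 117.6 and 115.7 CPM in knockouts 4, 5 and 6. Its groups overlapped, with a log2 fold change of 0.21 (SE 0.26, edgeR quasi-likelihood adjusted p = 0.812), so the whole-ganglion level did not separate the labelled genotypes.

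Microtubules are hollow polymers of alpha- and beta-tubulin dimers, and gamma-tubulin starts new ones. Most kinesins walk towards the fast-growing plus end and, in axons, carry vesicles, mitochondria and filament proteins away from the cell body, while cytoplasmic dynein with its activator dynactin carries signals, endosomes and lysosomes back. Sensory neurons have among the longest axons of the body, depend on both directions of transport, and change the tubulin isotypes they make when their axons grow.

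The alpha-tubulin genes Tuba1a, Tuba1b and Tuba1c show what limits the counting of isotypes. Their coding sequences were 98.3% identical between Tuba1a and Tuba1b, 97.1% between Tuba1a and Tuba1c, and 97.9% between Tuba1b and Tuba1c.

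Tubb2a and Tubb2b form a similar pair among the beta-tubulins, with 96.5% identity over their coding sequences. Their last 60 coding bases, stop codon included, encode the acidic tail that projects from the microtubule surface, where tubulin isotypes in general differ most. They are shown 5′ to 3′ from GENCODE vM21 because they show how little separates the pair, with capitals at the 3 positions that differ. All 3 differences leave the encoded amino acid unchanged, so Tubb2a and Tubb2b encode the same residues over this stretch.
Tubb2a: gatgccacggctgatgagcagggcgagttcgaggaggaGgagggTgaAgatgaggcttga
Tubb2b: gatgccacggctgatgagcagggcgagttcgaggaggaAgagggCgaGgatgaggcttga

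Over the longest coding transcript of each gene, the share of 75-base stretches found exactly in another gene was 71.9% for Tuba1b, 68.2% for Tuba1a and 56.7% for Tuba1c. It was 43.2% for Tubb2a, 37.8% for Tubb4b and 32.2% for Tubb2b, in part through pseudogenes. RSEM divides reads among such copies, and 15 of the 17 tubulins had expected counts that were not whole in at least 1 library. The split between Tuba1a, Tuba1b and Tuba1c, and between Tubb2a and Tubb2b, is therefore uncertain. No such stretch was shared for Tubb3, Tubb4a, Tubb5, Tubb6, Tuba4a, Tuba8 or Kif21b. The tubulins named here, Tubb6 and Tuba8 included, were still among the 15 without whole counts, so some of their reads were divided as well. Kif21b had whole counts in every library.

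The highest levels were those of tubulins. Tuba1a, the main neuronal alpha-tubulin, was at 7006 ± 52.7 TPM in wild type (SD, n = 3) and ranked 4 of all gene identifiers by TPM. Tubb3, the neuron-specific beta-tubulin, followed at 2955 ± 275 TPM and Tuba1b, a widely expressed alpha-tubulin, at 2707 ± 91.1 TPM. Tubb2a, Tubb4b and Tubb5 lay between 1107 and 1306 TPM, and the spread of the last pair was over 100 TPM, so their order was not resolved.

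Among motors, Kif5a, the neuronal heavy chain of kinesin-1, had the highest level at 582 ± 101 TPM in wild type. Kif1b, a kinesin-3 carrier of mitochondria and vesicles, had 451 ± 58.5 TPM, and Kif21a, a kinesin-4 motor that slows growth at plus ends, had 447 ± 24.2 TPM. Kif1a, the carrier of synaptic vesicle precursors, had 384 ± 103 TPM. The dynein heavy chain gene Dync1h1 had 359 ± 163 TPM, close to the dynactin subunit genes Dctn2, at 374 ± 76.5 TPM, and Dctn1, at 265 ± 92.9 TPM. The spread between animals left the order of neighbours in this series unresolved.

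Of the 69 genes, 28 had a mean of at least 100 TPM and 12 had a mean under 1 TPM. The 5 genes too low to be tested were Kif12, Kif28, Kif2b, Tuba3a and Tuba3b, with at most 4 counts in any library and 0 in every library for Kif2b. The testis isotypes Tuba3a and Tuba3b were thus listed at or near 0. The 69 genes together held between 2.67 and 2.94% of all expected counts per library.

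**Figure D1:**
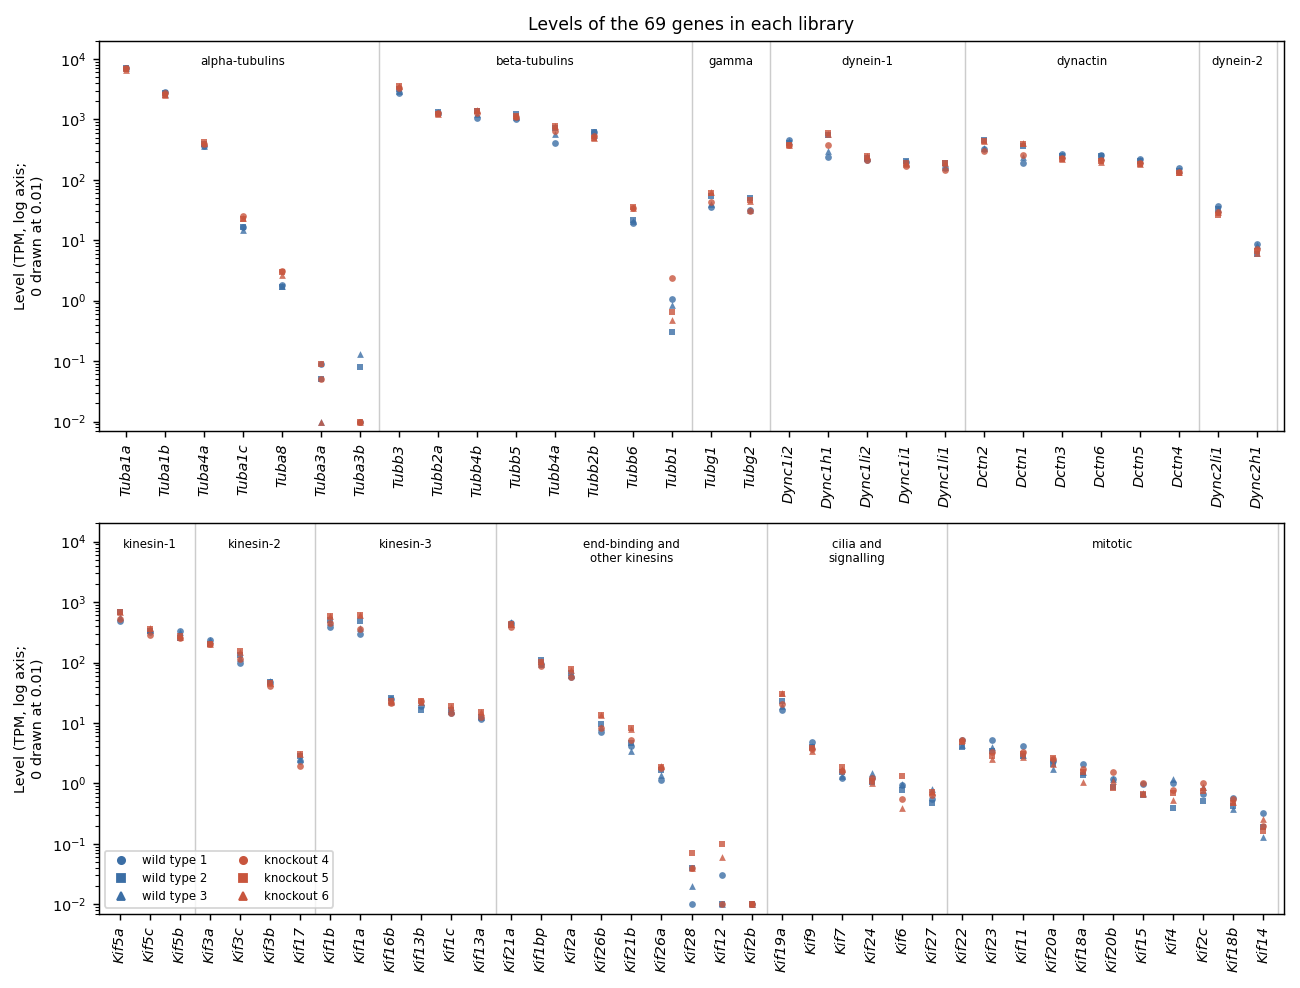
Level of each of the 69 genes in TPM on a log axis, by role, with 1 point per library (blue, wild type; red, knockout; marker shape, library; a level of 0 is drawn at 0.01). Tuba1a, Tubb3 and Tuba1b had the highest levels, and the mitotic kinesins lay near or below 5 TPM.

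With edgeR's quasi-likelihood test and Benjamini-Hochberg adjustment over 16810 genes, 0 of the 64 genes tested passed an adjusted p of 0.05, where 16 of all genes tested did (0.0952%). An unadjusted p under 0.05 was found for 4 (6.25%), where 9.16% of all genes had one. These were Tubb6, Tuba1c, Tuba8 and Kif21b, all higher in the knockout, a direction and p that 5.16% of all genes had. That count was 15 with 6 separate libraries (23.44%, where all genes gave 18.9%). Without wild-type library 2 it was 12, a setting in which the share over all genes was not counted. DESeq2 called 2, Tubb6 and Tuba1c, where it called 1.52% of all genes, and limma on voom values called 0. With 6 separate libraries edgeR called 1, Tubb6, where 0.871% of all genes were called. The knockout and wild-type groups did not overlap for 20 of the 64 (31.25%), 10 higher and 10 lower in the knockout, beside 26.7% of all genes, 13.1% higher and 13.6% lower. The log2 fold change, knockout over wild type, was positive for 36 of the 64 and for 50.2% of all genes. Its median was 0.06 over the 64 and 0.00 over all genes, and the median of its absolute value was 0.16 against 0.17. In whole tissue, fewer cells of a type and less RNA per cell cannot be told apart, which holds for each difference given here.

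**Figure D2:**
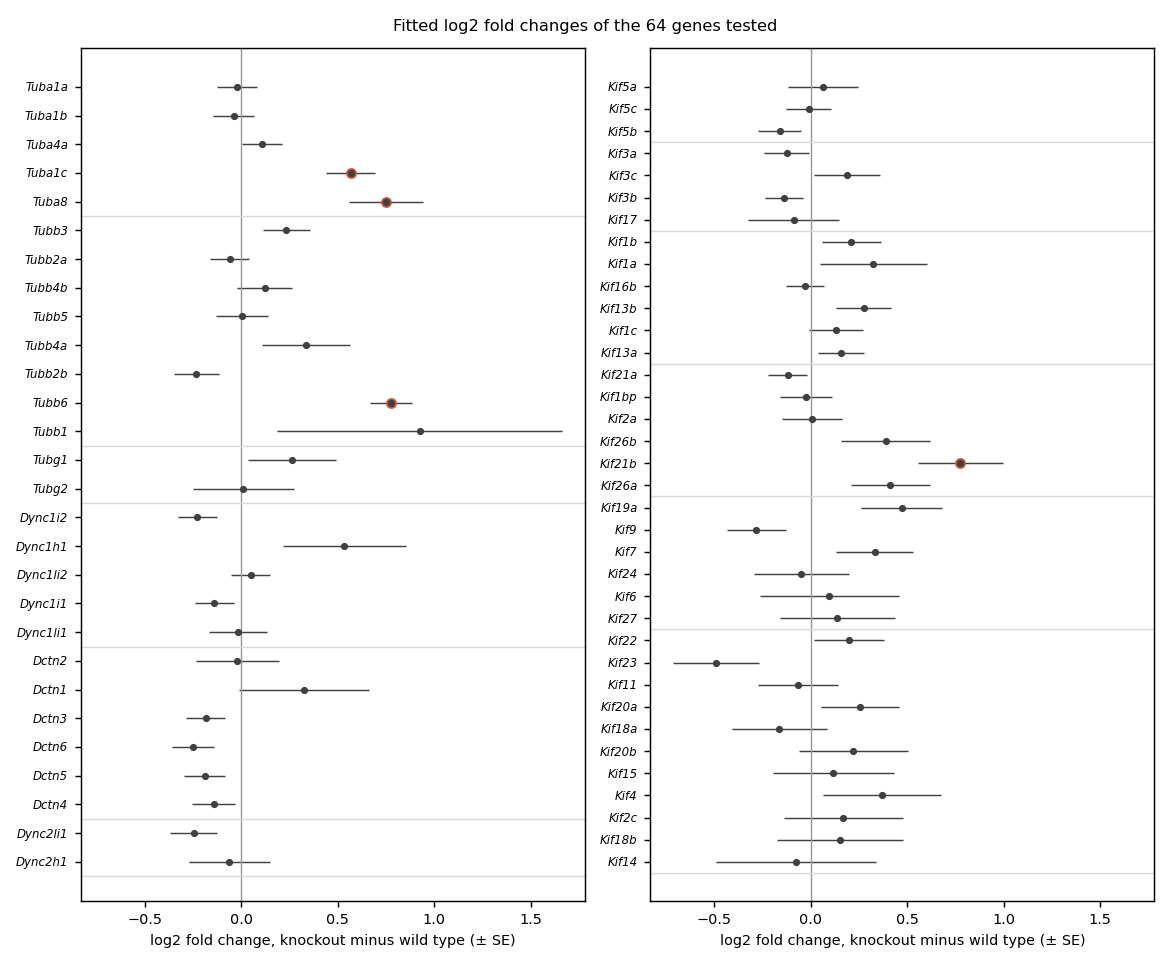
Fitted log2 fold change, knockout minus wild type, of the 64 genes tested, with bars of ± 1 SE and grey lines between role groups; red outlines mark an unadjusted p under 0.05. Most points lie within 0.5 of 0, and Tubb6, Tuba8 and Kif21b lie near 0.75.

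Among the tubulins, Tubb6, Tuba1c and Tuba8 had the smallest p, and none passed the threshold. Tubb6, a beta-tubulin of many non-neuronal cell types, was at 15.1, 16.4 and 15.9 CPM in the wild-type mice and at 27.6, 27.8 and 26.3 CPM in knockouts 4, 5 and 6. Every knockout library lay above every wild-type library. The means of 15.8 ± 0.657 (SD, n = 3) and 27.3 ± 0.373 CPM (SD, n = 2) gave a 1.71-fold difference, a log2 fold change of 0.77 (SE 0.11). By edgeR the p was 0.000278, rank 38 of all genes, and the adjusted p of 0.123 missed the threshold. It was 0.0151 with 6 separate libraries, 1.12e-05 by DESeq2 and 0.0772 with the GC trend removed, and ran from 1.12e-05 to 0.418 over 18 alternatives, in which the log2 fold change lay between 0.67 and 0.82.

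Tuba1c (chromosome 15, 99029891 to 99038110, plus strand, GRCm38), an alpha-tubulin found in many cell types, was at 14.9, 14.6 and 12.7 CPM in the wild-type mice and at 22.4, 19.3 and 19.97 CPM in knockout. The groups did not overlap. Its log2 fold change was 0.57 (SE 0.13), a 1.48-fold difference, with an edgeR adjusted p of 0.288 and a DESeq2 adjusted p of 0.0384. Its level was 16.0 TPM against 7006 TPM for Tuba1a in wild type, so a small share of reads divided differently among the near-identical copies would move it, and the part of that division in the difference was not tested.

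Tuba8 (chromosome 6, 121210696 to 121226854, plus strand, GRCm38), whose coding sequence was 79.2% identical to Tuba1a, was at 1.84, 1.66 and 1.74 CPM in the wild-type mice and at 3.14, 2.96 and 2.63 CPM in knockout. All 3 knockout libraries were above the wild-type libraries. Its log2 fold change of 0.75 (SE 0.19) had an edgeR adjusted p of 0.34, and at under 4 CPM it was the lowest of the 4 genes.

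The means of Tuba1a and Tuba1b, which made up most of the summed alpha-tubulin TPM, were close in both groups. Tuba1a was at 5131, 5104 and 5010 CPM in the wild-type mice and at 5314, 4830 and 4742 CPM in knockout, and its log2 fold change was -0.02 (SE 0.10, edgeR adjusted p = 0.962). Knockout 4 was the highest library and knockouts 5 and 6 the lowest. Tuba1b had a log2 fold change of -0.04 (SE 0.11). Tuba4a, an alpha-tubulin of mature neurons and muscle that is made without its final tyrosine, was at 338, 358 and 329 CPM in the wild-type mice and at 369, 379 and 368 CPM in knockout. Its groups did not overlap, but the log2 fold change was 0.11 (SE 0.10, edgeR adjusted p = 0.753), and 0.03 with a trend in GC content between libraries removed.

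Tubb3 (chromosome 8, 123411424 to 123422015, plus strand, GRCm38) was at 2258, 2668 and 2403 CPM in the wild-type mice and at 2864, 2939 and 2925 CPM in knockout. The knockout libraries were all above the wild-type ones, with a log2 fold change of 0.23 (SE 0.12, edgeR adjusted p = 0.603), which was 0.13 with the GC trend removed and 0.09 with 6 separate libraries as well. Tubb2b, an isotype of developing neurons, went the other way, at 544, 522 and 471 CPM in wild type against 463, 420 and 412 CPM in knockout. Those groups did not overlap either, and the log2 fold change was -0.23 (SE 0.12, edgeR adjusted p = 0.589). For Tubb2a, the near-identical partner of Tubb2b, the log2 fold change was -0.06 (SE 0.10).

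Tubb4a, an isotype of neurons and of myelinating oligodendrocytes, was at 416, 705 and 573 CPM in the wild-type mice and at 668, 779 and 764 CPM in knockout. Wild-type library 2 lay above knockout 4, so the groups overlapped, and the log2 fold change was 0.34 (SE 0.23, edgeR adjusted p = 0.68). Tubb5, a ubiquitous isotype, and Tubb4b, common in ciliated cells, had log2 fold changes of 0.01 (SE 0.13) and 0.12 (SE 0.14). The largest value of any of these genes belonged to Tubb1, the isotype of platelets and megakaryocytes, at 0.92, but with an SE of 0.74. It rested on knockout 4, at 1.5 CPM, while knockouts 5 and 6 were at 0.406 and 0.282 CPM and wild type at 0.184 to 0.665 CPM. Markers of erythroid cells were also highest in knockout 4, with 6 of 6 measured, a summed level of 59742 TPM there, 12746 to 24477 TPM in wild type and 16420 to 16460 TPM in knockouts 5 and 6; their part in the Tubb1 level was not tested.

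**Figure D3:**
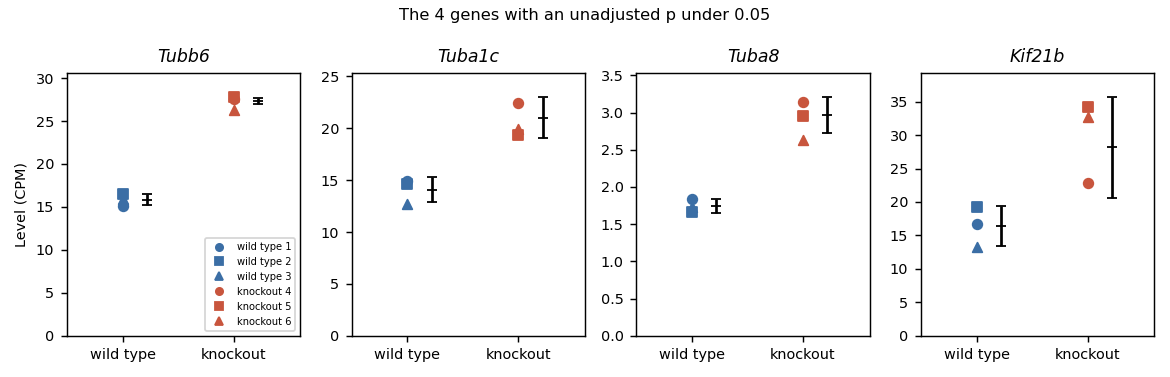
Normalised level in CPM, on axes that start at 0, of the 4 genes with an unadjusted p under 0.05; points are libraries and bars are the mean ± SD over 3 wild-type and 2 knockout samples. Each knockout library lies above each wild-type library, and the spread is narrow for Tubb6 and wide for Kif21b.

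Isotype shares gave the make-up of each pool on the TPM scale, without a test. Tubb3 made up 37.79, 38.01 and 38.05% of the summed beta-tubulin TPM in wild type and 40.9, 41.4 and 41.6% in knockout. Its share was 37.9 ± 0.142% (SD, n = 3) against 41.2 ± 0.406% (SD, n = 2), and every knockout library was above every wild-type library. Tubb2b held 8.83, 7.23 and 7.24% in wild type and 6.41, 5.74 and 5.68% in knockout, with no overlap. The Tubb5 share, at 14.1, 14.4 and 14.13% against 13.3, 13.1 and 12.96%, was also lower without overlap. The shares of a pool depend on each other, and the Tubb5 level itself overlapped between groups. That level was 1107 ± 113 TPM in wild type and 1109 ± 25.8 TPM in knockout. Tubb6 held 0.263 ± 0.0115% of the pool in wild type and 0.414 ± 0.00861% in knockout. The shares of Tubb2a, Tubb4b and Tubb4a overlapped between groups.

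Summed beta-tubulin was 7785 ± 704 TPM in wild type and 8419 ± 323 TPM in knockout, and summed alpha-tubulin was 10106 ± 98.2 and 9935 ± 406 TPM. The groups overlapped for both sums. Their ratio, alpha over beta, was 1.43, 1.19 and 1.29 in wild type and 1.25, 1.12 and 1.11 in knockout, also overlapping. Within the alpha pool, Tuba1a took 68.6 to 69.9% in wild type and 69.2 to 69.3% in knockout. Tuba1c held 0.159 ± 0.0106% in wild type and 0.238 ± 0.00526% in knockout, without overlap.

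**Figure D4:**
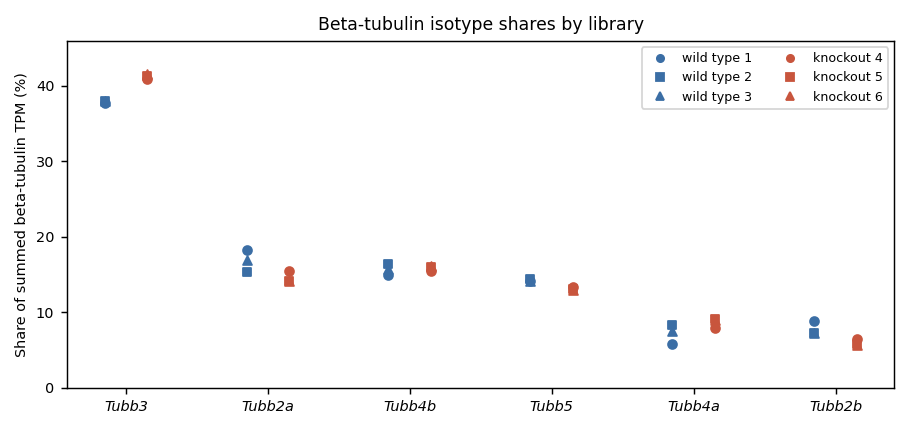
Share of 6 beta-tubulin isotypes in the summed beta-tubulin TPM of each library, in percent on an axis that starts at 0 (blue, wild type; red, knockout; marker shape, library). The Tubb3 share lay between 37.79 and 38.05% in wild type and between 40.9 and 41.6% in knockout. The shares of Tubb5 and Tubb2b were lower in every knockout library.

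Gamma-tubulin is coded by Tubg1 and Tubg2, which share 93.3% of their coding sequence. Tubg1, the general isotype, was at 28.2, 42.1 and 31.0 CPM in the wild-type mice and at 34.2, 47.7 and 47.7 CPM in knockout. Wild-type library 2 and knockouts 5 and 6 were the high libraries, the groups overlapped, and the log2 fold change was 0.26 (SE 0.23). For Tubg2 it was 0.01 (SE 0.26).

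The promoters of Tuba1c and Tuba8 are shown because both genes had an unadjusted p under 0.05; the others with such a p, Tubb6 and Kif21b, had no entry in the promoter table used. RefSeq sequences on GRCm38.p6 were used, plus strand and 5′ to 3′, ending just before the annotated start. The motifs searched on both strands were the AP-1 type TGANTCA, the cyclic AMP response element TGACGTCA, the CCAAT box, the TATA box as TATAAA, the GC box as GGGCGG and the E-box as CACGTG, and none of them contains another. Capitals mark the matches, ATTGG being CCAAT read from the other strand. The windows are chr15:99029641-99029890 and chr6:121210484-121210695.
Tuba1c: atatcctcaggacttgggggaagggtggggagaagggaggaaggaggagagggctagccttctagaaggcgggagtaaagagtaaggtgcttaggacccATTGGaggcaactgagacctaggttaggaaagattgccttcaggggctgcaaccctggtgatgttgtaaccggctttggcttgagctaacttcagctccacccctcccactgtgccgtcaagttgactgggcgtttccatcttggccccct
Tuba8: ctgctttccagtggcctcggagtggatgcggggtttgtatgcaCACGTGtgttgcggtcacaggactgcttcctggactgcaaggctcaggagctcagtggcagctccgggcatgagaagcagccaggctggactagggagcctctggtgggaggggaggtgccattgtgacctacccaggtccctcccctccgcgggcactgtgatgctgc

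Of the 69 genes, 54 were matched to 60 promoter windows, each of 250 bases before and 50 after the start. CCAAT was found in 45% of these windows and in 37.4% of all 32851 windows of that length, and CACGTG in 5% and 7.15%. GGGCGG was in 60% against 35.7%, TGACGTCA in 8.33% against 1.79%, TATAAA in 11.7% against 13.6%, and TGANTCA in 0 of 60 against 7.81%. A match describes letters and is no evidence of binding.

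The subunits of cytoplasmic dynein-1 differed in opposite directions, none past the threshold. Dync1h1, the heavy chain that holds the motor, was at 833, 1702 and 1139 CPM in the wild-type mice and at 1462, 2137 and 2116 CPM in knockout. Wild-type library 2 lay above knockout 4, and the log2 fold change was 0.53 with an SE of 0.32 (edgeR adjusted p = 0.642). The intermediate chain Dync1i2, which joins the motor to dynactin, was at 524, 468 and 492 CPM in the wild-type mice and at 431, 424 and 416 CPM in knockout. It was lower in every knockout library, with a log2 fold change of -0.23 (SE 0.10, edgeR adjusted p = 0.561), which was -0.14 with the GC trend removed. Its neuronal counterpart Dync1i1 was also lower without overlap, at 222 to 238 CPM against 207 to 216 CPM, and had a log2 fold change of -0.14 (SE 0.10). The light intermediate chains Dync1li1 and Dync1li2, which hold cargo adaptors, had log2 fold changes of -0.02 (SE 0.15) and 0.05 (SE 0.10).

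In dynactin, 5 of the 6 genes had a negative log2 fold change and 3 were lower without overlap, Dctn3, Dctn5 and Dctn6, beside 13.6% of all genes lower without overlap. Dctn6, which caps the pointed end of the dynactin filament, was at 80.5, 76.2 and 71.0 CPM in the wild-type mice and at 66.7, 62.4 and 61.2 CPM in knockout. All knockout libraries were below the wild-type ones, and the log2 fold change was -0.25 (SE 0.11, edgeR adjusted p = 0.555). Dctn5, its partner at the same end, gave -0.19 (SE 0.11) and Dctn3, a subunit of the shoulder, -0.18 (SE 0.10). Dctn1, the arm that grips microtubules, was the positive one at 0.33 (SE 0.34), with 299, 623 and 389 CPM in wild type and 435, 679 and 668 CPM in knockout. Its groups overlapped, and without knockouts 5 and 6 the value was -0.02. Dctn2, or dynamitin, was at -0.02 (SE 0.21).

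Dynein-2 carries cargo back along cilia. Its heavy chain gene Dync2h1 had a log2 fold change of -0.06 (SE 0.21), and its light intermediate chain gene Dync2li1 was at 21.3, 18.8 and 18.6 CPM in wild type against 17.7, 14.8 and 16.4 CPM in knockout. The Dync2li1 groups did not overlap, at a log2 fold change of -0.25 (SE 0.12, edgeR adjusted p = 0.589).

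The kinesin-1 heavy chains, which move vesicles, mitochondria and neurofilaments, showed no separation. Kif5a was at 1446, 1982 and 1588 CPM in the wild-type mice and at 1560, 1979 and 1955 CPM in knockout. Wild-type library 2 matched knockouts 5 and 6, and the log2 fold change was 0.06 (SE 0.18, edgeR adjusted p = 0.924). Kif5b, the ubiquitous chain, was at -0.16 (SE 0.11), or -0.07 with the GC trend removed, and the neuronal Kif5c at -0.01 (SE 0.12). Kif5a took 43.5, 53.7 and 45.7% of the summed kinesin-1 TPM in wild type and 49.0, 52.3 and 52.2% in knockout, which overlapped.

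The kinesin-2 genes, whose products work as mixed dimers in axons and cilia, had log2 fold changes between -0.14 and 0.19. Kif3b was lower without overlap, at 124, 122 and 124 CPM in wild type and 109, 116 and 118 CPM in knockout, a small difference with a log2 fold change of -0.14 (SE 0.10). Its partners Kif3a and Kif3c had -0.13 (SE 0.12) and 0.19 (SE 0.17), and the dendritic and ciliary Kif17 had -0.09 (SE 0.24).

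The kinesin-3 genes had a median log2 fold change of 0.18, positive for 5 of 6. Kif1a was at 1089, 1816 and 1330 CPM in the wild-type mice and at 1380, 2205 and 2175 CPM in knockout, a log2 fold change of 0.32 (SE 0.28, edgeR adjusted p = 0.726) that was -0.05 without knockouts 5 and 6. The Kif1a groups overlapped. Kif13b, which transports membrane cargo and is active in myelinating glia, was at 49.6, 41.4 and 55.8 CPM in the wild-type mice and at 61.9, 58.8 and 55.6 CPM in knockout. Those groups did not overlap once libraries 5 and 6 were averaged, and its log2 fold change was 0.27 (SE 0.14, edgeR adjusted p = 0.602). Kif13a, a carrier of endosomes, was also higher without overlap at 0.16 (SE 0.12), or 0.08 with the GC trend removed. Kif1b gave 0.21 (SE 0.15), Kif1c 0.13 (SE 0.14) and Kif16b -0.03 (SE 0.10); an antisense RNA, Kif16bos, lies at the Kif16b locus, and the sources used here do not say whether the counting used strand.

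Myelinating Schwann cell markers were higher in the knockout beside these values. All 9 were measured, 9 had a positive log2 fold change, and their summed level was 4976 to 5843 TPM in wild type and 6516 to 6752 TPM in knockout. Satellite glia markers summed to 4891 to 5315 and 5441 to 5999 TPM, and endothelial markers to 36.6 to 38.1 and 48.6 to 51.7 TPM. Neuronal markers overlapped, at 10283 to 11959 and 10607 to 12048 TPM. Markers of non-myelinating Schwann cells overlapped too, at 866 to 1180 and 1000 to 1290 TPM. So did those of fibroblasts, at 648 to 891 and 604 to 751 TPM, and of macrophages, at 33.9 to 44.4 and 31.2 to 40.7 TPM. These are overlaps of sums, which can hide single markers. With edgeR, 3 of 6 fibroblast markers were higher at an unadjusted p under 0.05, and the other 3 had a negative log2 fold change. At that p, 2 of 11 neuronal markers were lower and 1 of 5 non-myelinating Schwann cell markers was higher, beside 9.16% of all genes. Skeletal muscle markers, 6 of 6 with a positive log2 fold change, summed to 5.24 to 20.02 TPM in wild type, 59.3 TPM in knockout 4, and 5.54 and 6.72 TPM in knockouts 5 and 6; knockout 4 was also the highest library for Tuba1c and Tuba8. No marker in these lists was at 0 in all libraries, and their part in the tubulin and motor differences was not tested.

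Kif21b (chromosome 1, 136131389 to 136177998, plus strand, GRCm38), a kinesin-4 motor of dendrites and axons that pauses microtubule growth, was at 16.7, 19.2 and 13.2 CPM in the wild-type mice and at 22.8, 34.3 and 32.7 CPM in knockout. The groups did not overlap, but knockout 4 was nearer to wild type than to knockouts 5 and 6. Its log2 fold change was 0.77 (SE 0.22), a 1.71-fold difference, with an edgeR p of 0.011 and an adjusted p of 0.38. Without knockouts 5 and 6 the log2 fold change was 0.47. With the GC trend removed and 6 separate libraries, an alternative chosen after seeing the data, its edgeR adjusted p was 0.0438, where 2.6% of all genes were called.

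Its close relative Kif21a was far more abundant and differed little, at 1294, 1197 and 1321 CPM in wild type and 1140, 1235 and 1194 CPM in knockout, with a log2 fold change of -0.12 (SE 0.10). Kif26a and Kif26b, which bind microtubules without walking along them, had 0.41 (SE 0.20) and 0.39 (SE 0.23); only the Kif26a groups were apart, at 3.60 to 5.26 CPM in wild type and 5.80 to 6.07 CPM in knockout. The depolymerase Kif2a and the kinesin-binding Kif1bp were at 0.01 (SE 0.16) and -0.02 (SE 0.14).

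Of the kinesins of cilia and signalling, Kif19a, which trims motile cilia, had the highest level and a log2 fold change of 0.47 (SE 0.21, edgeR adjusted p = 0.57). It was at 16.1, 22.4 and 18.3 CPM in the wild-type mice and at 21.8, 31.0 and 31.1 CPM in knockout, with wild-type library 2 above knockout 4. Kif7, a regulator of Hedgehog signalling, was higher without overlap at 0.33 (SE 0.20), or 0.21 with the GC trend removed, and Kif9, a kinesin of motile cilia, lower without overlap at -0.28 (SE 0.15), both under 7 CPM. Markers of ciliated cells summed to 31.7 to 37.1 TPM in wild type and 32.3 to 40.9 TPM in knockout.

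The 11 mitotic kinesins were all low, with summed levels of 23.8, 16.8 and 18.8 TPM in wild type and 21.4, 18.5 and 17.6 TPM in knockout. The log2 fold change was positive for 7 and negative for 4. Kif23, part of the centralspindlin complex of dividing cells, was at 8.10, 5.26 and 6.10 CPM in the wild-type mice and at 5.25, 4.38 and 3.79 CPM in knockout. The groups were only just apart, and the log2 fold change was -0.49 (SE 0.22, edgeR adjusted p = 0.574). As a share of the mitotic kinesin TPM, Kif23 was apart more widely, at 20.3 to 21.7% in wild type and 14.2 to 15.4% in knockout. Once libraries 5 and 6 were averaged, the Kif18a share was also lower without overlap, and those of Kif22 and Kif18b were higher without overlap. The shares of this low pool depend on each other, so they add no separate support to the Kif23 difference. Kif22, which moves chromosome arms, had the highest level of them at 4.52 ± 0.671 TPM in wild type, and a log2 fold change of 0.20 (SE 0.18). The 9 markers of dividing cells summed to 25.7 to 37.2 TPM in wild type and 29.0 to 39.4 TPM in knockout.

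Levels of many of these genes also differed between libraries of 1 group. Wild-type library 2 over the mean of wild types 1 and 3, and knockouts 5 and 6 over knockout 4, were compared gene by gene. For Dctn1 the ratios were 1.82 and 1.55, for Dync1h1 1.75 and 1.45, and for Kif1a 1.51 and 1.59. At the other end, Dync2h1 had 0.647 and 0.824. Over the 64 genes the log2 ratios had a Pearson correlation of 0.829, and over 16585 genes of 0.548; genes are not replicates, and each ratio is shared by all genes of the same libraries. Over the 64 genes the ratio of wild-type library 2 had a correlation of 0.622 with transcript GC content and of 0.0314 with log length. That of knockouts 5 and 6 had 0.437 and 0.268. Over the 16585 genes these were 0.503 and 0.0763 for wild-type library 2, and 0.354 and 0.269 for knockouts 5 and 6. The trends were thus not particular to the 64. With a GC trend removed, the log2 fold changes were 0.70 for Tubb6, 0.51 for Tuba1c, 0.70 for Tuba8 and 0.68 for Kif21b, and the part of GC content in these differences was not tested.

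**Figure D5:**
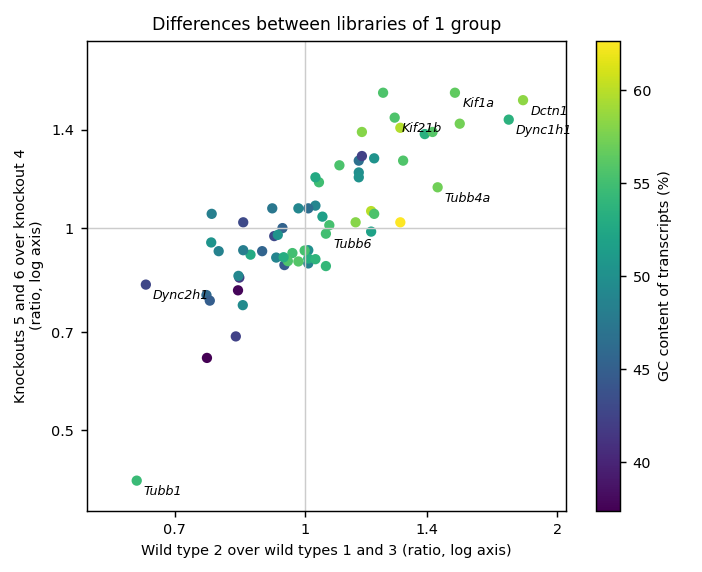
For each of the 64 genes tested, the ratio of wild-type library 2 to wild types 1 and 3 (x axis) and of knockouts 5 and 6 to knockout 4 (y axis), both on log axes, coloured by the GC content of the transcripts in percent. Dctn1, Dync1h1 and Kif1a lie at the upper right, and Tubb6 lies near 1 on both axes.

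Other genes of microtubule transport were read from lists, in which 0 genes passed an adjusted p of 0.05 with edgeR. Over all genes tested, 9.16% had an unadjusted p under 0.05 and 50.2% a positive log2 fold change, and the list counts stand beside these shares. Of 15 light chains and adaptors of kinesin-1, 10 had a positive log2 fold change and 1 had an unadjusted p under 0.05, Fez1. Fez1, an adaptor for axonal cargo, was at 501, 470 and 472 CPM in the wild-type mice and at 394, 395 and 383 CPM in knockout. It was lower in every knockout library, with a log2 fold change of -0.31 (SE 0.10, edgeR adjusted p = 0.438); Mapk8ip1, another adaptor, gave 0.36 (SE 0.26). Of 26 dynein light chains, regulators and adaptors tested, 18 were negative, and Actr10, a dynactin pointed-end subunit like Dctn5 and Dctn6, had -0.26 (SE 0.11), lower without overlap, while Nde1, a dynein regulator, had 0.22 (SE 0.11). Of 6 kinesin genes outside the naming rule, 5 were positive, with 0.39 (SE 0.25) for the mitotic Kifc1 and 0.18 (SE 0.20) for Kifc3.

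Among proteins that bind and shape microtubules, Stmn4, a neuronal stathmin that binds tubulin dimers, was at 13.8, 15.8 and 14.03 CPM in the wild-type mice and at 28.9, 23.99 and 23.04 CPM in knockout. The groups did not overlap, and the log2 fold change of 0.83 (SE 0.14) had an edgeR adjusted p of 0.221, which was 0.046 with 6 separate libraries and 0.00052 by DESeq2. Of the 12 stathmins and severing enzymes, 2 had an unadjusted p under 0.05, beside 9.16% of all genes. These were Stmn4 and the severing enzyme Fign at 0.43 (SE 0.13), both higher. Of 24 structural microtubule-associated proteins, 17 were positive, with 2 higher and 1 lower at an unadjusted p under 0.05, beside the same 9.16%. Map1b, which stabilises growing axons, was at 3929, 6924 and 5403 CPM in the wild-type mice and at 7170, 10940 and 10786 CPM in knockout, a log2 fold change of 0.72 (SE 0.28, edgeR adjusted p = 0.522). Dcx, or doublecortin, of immature neurons, was lower in every knockout library at 12.7 ± 2.45 CPM (SD, n = 3) against 7.99 ± 0.893 CPM (SD, n = 2), a log2 fold change of -0.67 (SE 0.19, edgeR adjusted p = 0.374).

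Of 19 proteins of microtubule ends, 14 were positive, with 2 higher and 1 lower at an unadjusted p under 0.05, beside 9.16% of all genes. The higher ones were the neuron navigators Nav2 at 0.48 (SE 0.14) and Nav3 at 0.38 (SE 0.12), and the lower one was Ckap5, a polymerase of plus ends, at -0.38 (SE 0.14). Of 25 tubulin-modifying enzymes tested, 14 were positive. Vash2, an enzyme that removes the final tyrosine of alpha-tubulin, was at 4.26, 4.18 and 4.26 CPM in the wild-type mice and at 5.80, 6.99 and 5.95 CPM in knockout, a log2 fold change of 0.53 (SE 0.14, edgeR adjusted p = 0.371); Ttll12 had 0.44 (SE 0.21). Of 20 tubulin-folding chaperones, 18 were negative with a median log2 fold change of -0.18, and 9 were lower and 0 higher without overlap, beside 13.6% of all genes lower and 13.1% higher without overlap and 50.2% with a positive value. The prefoldin subunit Pfdn5 had -0.38 (SE 0.15) and the tubulin cofactor Tbca -0.30 (SE 0.13). The gamma-tubulin complex list had 4 of 12 positive, with Mzt1 at -0.19 (SE 0.10) and Pcnt at 0.27 (SE 0.16), and the axonemal dyneins 7 of 14, with Dnah1 at -1.25 (SE 0.41) at under 1 CPM and Dnah9 at -0.37 (SE 0.20). Of 5 neuronal filament genes 4 were positive, with 0.35 (SE 0.17) for Nefl and 0.47 (SE 0.25) for Nefh.

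Genes of injured sensory neurons were read beside the tubulin values. All 10 had a positive log2 fold change, and 5 passed the test over all genes, Atf3, Ecel1, Gal, Npy and Sprr1a, where 0.0952% of all genes passed. Atf3, a transcription factor induced by axon injury, was at 8.71, 8.09 and 6.27 CPM in the wild-type mice and at 58.4, 55.1 and 56.2 CPM in knockout, and rose by a log2 fold change of 2.88 (SE 0.16, edgeR adjusted p = 0.00722). Stmn4, given above among the stathmins, also belongs to this list of injured-neuron genes. Its value is therefore counted in the list and is not separate from it. The part of the injured-neuron genes in the levels of Tubb6, Tuba1c, Tuba8 and Kif21b was not tested.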

How the data were processed

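Per the submitters' processing notes, the tools were Trimmomatic 0.38 for trimming, STAR 2.6.0a for alignment and RSEM 1.3.0 for quantification, on GRCm38. The sources used here give neither the annotation release nor the strand setting. A stranded mRNA kit was used on total RNA whose RIN exceeded 8.0, per the labels' protocols. The authors deposited expected counts, TPM, FPKM and gene lengths per library in 1 table, per the file headers. The deposited expected counts are estimated by RSEM and not normalised, and were rounded to whole numbers. The deposited TPM values served for levels between genes and for isotype shares, and FPKM, as the authors deposited it, was only summed per library. Deposited effective lengths, in bases, served for an alternative to the shares. By construction it can differ from the TPM shares only by rounding, so it is no independent check. The GC trend was not removed for any share.

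Symbols, positions and coding sequences came from GENCODE vM21 on GRCm38, and 35243 of 36793 identifiers matched. Counts were filtered with filterByExpr, scaled by TMM and entered into the quasi-likelihood test of edgeR 4.0.16 (R 4.3.3), two-sided, with genotype as the only term, over 3 wild-type and 2 knockout samples. Libraries 5 and 6 were summed for the test and averaged for means, SDs and overlap. Each SE was derived by dividing the size of the log2 fold change by the root of its F statistic. Levels in CPM are counts per 1000000 after TMM. The spread between these samples is all that the p-values measure. Alternatives used DESeq2 1.42.0, limma 3.58.1 on voom values and on log2(TPM + 1) and log2(TPM + 0.1), other scalings and filters, removal of a GC trend (lowess, span 0.3), and leaving out libraries.

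The genes and lists were chosen with earlier results of these data known. The genes named are those with an unadjusted p under 0.05, the 20 with the highest mean TPM, in each role group the one with the highest TPM and the one with the largest log2 fold change at a mean of at least 1 CPM, and in each list the 2 with the smallest p and those that passed. Others, among them genes whose groups did not overlap and Tubb1, were named after their values were seen.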

Additional observations from a re-analysis of the deposited data

How the results depend on the processing

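No paired analysis was possible because each mouse has a number of its own, from 1 to 6. The 16 genes called became 144 with 6 separate libraries, 255 with DESeq2, 27 with voom, 81 without a low-count filter, 26 with the GC trend removed, 424 with the GC trend removed and 6 libraries (an alternative chosen after seeing the data) and 30 at a false discovery rate of 0.1; leaving out libraries gave 7 to 16 (7 without knockout 4, 8 without wild type 2, 10 without wild type 3). The 0 kinesin, dynein and tubulin genes called became 1, 2 and 1 with 6 libraries, DESeq2 and no filter, and 2 with the GC trend removed and 6 libraries; leaving out libraries gave 0 to 0. The 4 at an unadjusted p under 0.05 became 15 with 6 libraries, where the share of all genes went from 9.16 to 18.9%. They became 10 with voom, 7 without a filter, and 14 with the GC trend removed and 6 libraries. Leaving out any 1 library but knockout 4 gave 4 to 12. For these other settings the share over all genes was not counted. The median log2 fold change of the kinesin, dynein and tubulin genes, 0.06, stayed positive, at 0.01 to 0.11 over 18 alternatives. Some log2 fold changes turned their sign. With 6 libraries they were 0.0509 for Dctn2, 0.0254 for Kif5c and -0.00122 for Tubb5. With voom Dctn2 was at 0.0901, and without a filter Dctn2 and Kif5c were at 0.00158 and 0.00586. With the GC trend removed, Kif5a was at -0.0187 and Tubb5 at -0.0118, or -0.0283 with 6 libraries, and upper-quartile scaling gave -0.0155 for Tubb5. Without knockouts 5 and 6 together, Dctn1 was at -0.0234, Kif1a at -0.047, Kif5a at -0.114, Tuba1a at 0.0538 and Tuba1b at 0.0404. Leaving out single libraries gave -0.101 to 0.194 for Dctn2, -0.0214 to 0.222 for Kif5a, -0.0267 to 0.11 for Kif5c, -0.122 to 0.00664 for Tuba1b and -0.0524 to 0.116 for Tubb5. The Tuba1a share difference of -0.0694 percentage points ran from -0.437 to 0.202 and was 0.00625 without knockouts 5 and 6, while those of Tubb3 (2.94 to 3.51), Tubb6 (0.144 to 0.157) and Tuba1c (0.0738 to 0.0836) kept their sign. The cause of these changes was not tested. Where a knockout sample is left out, the lone one is assumed to vary like the wild type, and small differences could not be resolved with so few samples.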
